A study of Mus musculus with 14 samples.

Results

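The genes described here take up vitamin C (VC, ascorbic acid) and return its oxidized form, dehydroascorbate, to ascorbate. The 8 members were listed by name: the ascorbate transporters Slc23a1 and Slc23a2, the glucose transporters Slc2a1 and Slc2a3, the reductases Gsto1, Gsto2 and Glrx, and the thioredoxin reductase Txnrd1. They were 8 of the 20636 genes in the RPKM values of 14 single mouse embryos, with entries lacking a symbol kept under their own identifier. Of the 8, 5 reached 1 RPKM in at least 3 embryos. RPKM divides the reads of a transcript by its length and by the library's total, so levels can be compared between genes.

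All 14 embryos were made by somatic cell nuclear transfer (SCNT) in the B6D2F1 strain and lysed singly at the 2-cell stage. They were collected at 28 h, counted from nuclear transfer in the sample labels and from egg activation in the methods. The 6 embryos without VC were 3 Control embryos, which received neither agent, and 3 TSA(0-8h) embryos, which received 50 nM trichostatin A (TSA, a histone deacetylase inhibitor) in the first 8 h of activation. The 8 embryos with VC received 10 µg/ml. Of these, 1 was a VC(0-8h) and 2 were VC(8-15h) embryos without TSA, while 2 TSA(0-8h)+VC(0-8h) and 3 TSA(0-8h)+VC(8-15h) embryos also received 50 nM TSA from 0 to 8 h. Every embryo was activated in strontium with cytochalasin B and cultured in medium with deionized BSA. An embryo is a single reconstructed egg, only a part of its RNA entered the library, and the libraries were amplified by PCR. The labels name the strain but give the nuclear donor cell of no single embryo. The methods name cumulus cells as the usual donor.

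Mammalian cells take up ascorbate together with sodium through the SLC23 transporters, and take up dehydroascorbate through glucose transporters such as GLUT1 (Slc2a1) and GLUT3 (Slc2a3). Inside the cell dehydroascorbate is reduced with glutathione, by omega-class glutathione transferases and glutaredoxin among others, or by NADPH-dependent thioredoxin reductase. Ascorbate keeps the iron of 2-oxoglutarate-dependent dioxygenases reduced, a family to which the TET enzymes and many histone demethylases belong. Mice also make ascorbate from glucose, mainly in the liver.

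Between 3021540 and 13589389 reads were counted per embryo, and 3130 to 6231 genes reached 1 RPKM. A floor of 3 reads came to 0.221 to 0.993 RPKM for 1 kb of transcript, a limit that covers counting error only. Genes used by every cell were also listed at 0, Actb and Ppia in 1 embryo each, so a member at 0 is only listed at 0. The oocyte marker list summed to 253 to 1187 RPKM, and 6 of its 7 genes were at 1 RPKM in at least 3 embryos. Zar1 reached 1 RPKM in 2 embryos and was at 0 in 6, and Ooep reached it in 3 and was at 0 in 7. The cumulus marker list summed to 0 to 1.88 RPKM, with Inhba and Fshr at 0 in all 14 embryos and none of its 9 genes at 1 RPKM in 3 embryos. An RPKM value is a share of an embryo's reads, so less RNA of a gene and more RNA of other genes cannot be told apart. The embryos were sequenced in 3 pools of libraries, of 5, 6 and 3 embryos. In the 3 groups with 3 embryos, replicates 1, 2 and 3 lay in pools 1, 2 and 3.

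Of the 112 member values, 51 were 0, 30 were above 0 and under 1 RPKM, 9 were from 1 to under 10 RPKM and 22 were at 10 RPKM or more. For the 5 members that reached 1 RPKM in at least 3 embryos, 40 of 70 values were under 1 RPKM and 8 lay from 1 to under 10. A member was thus either near 0 or at 10 RPKM or more in most embryos, and embryos of the same group fell on either side. The level of 10 RPKM was chosen after the values were seen. By it, 4 embryos had 0 members at 10 RPKM or more and 1 embryo, TSA(0-8h)+VC(8-15h) replicate 1, had 4.

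**Figure D1:**
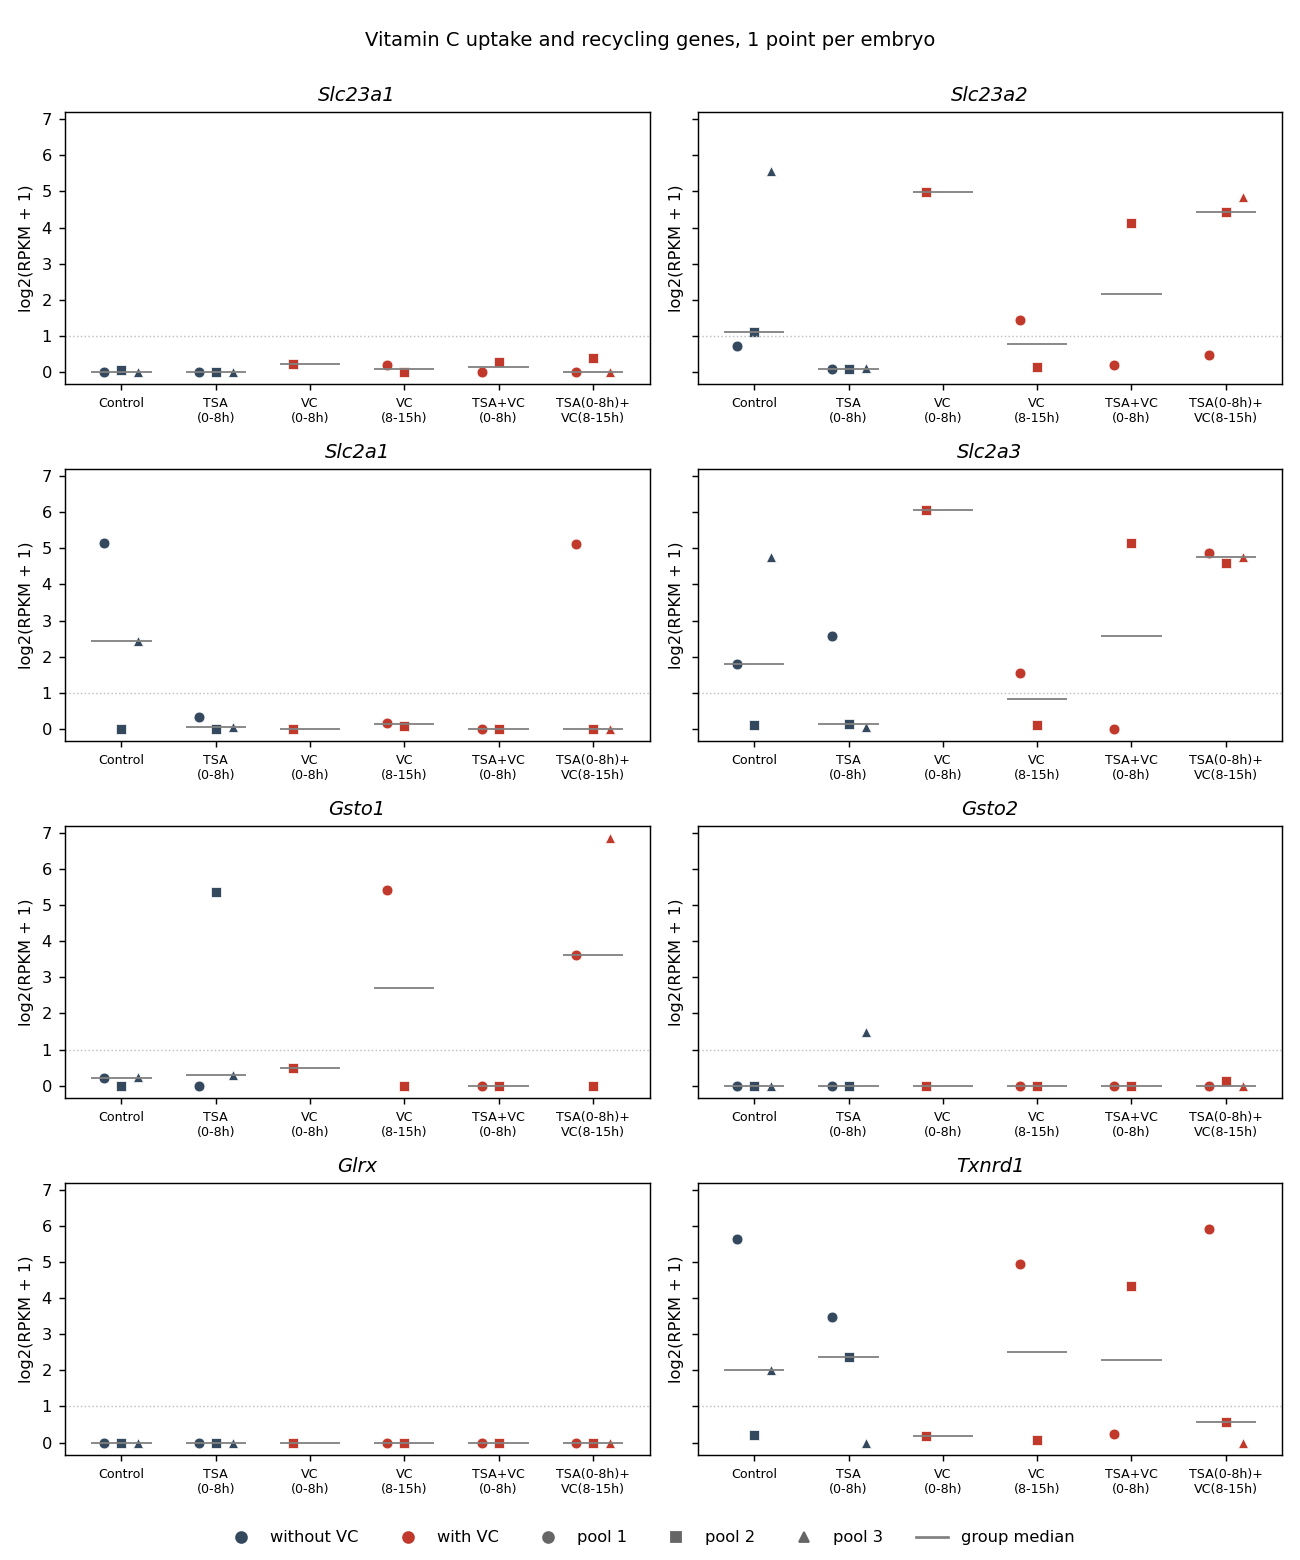
Level of each of the 8 members as log2(RPKM + 1) on the vertical axis, by treatment group on the horizontal axis. Each point is 1 of 14 embryos, coloured by VC and shaped by sequencing pool, with the group median as a grey line and 1 RPKM dotted. Slc2a3 in the 3 TSA(0-8h)+VC(8-15h) embryos lay between 23.0 and 28.0 RPKM, while the Control group spanned from 0.0736 to 26.3 RPKM, and Glrx was at 0 throughout.

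Promoter windows are printed for 3 members: the 2 whose counted transcript starts at a window in the RefSeq table, Slc23a2 and Txnrd1, and Slc2a1 as the glucose transporter with a window. Of the 8 members, 6 had a window in the table (GRCm38.p6), which runs 250 bases before to 50 after a start. Capitals mark matches on either strand to the hypoxia response core ACGTG, the antioxidant response core TGANNNNGC, the GC box GGGCGG or the TATA box TATAAA. Each window below was found once, letter for letter, in mm9, the build the authors mapped to. The Slc23a2 window lies at chr2:132145059-132145358 on the minus strand, the Slc2a1 window at chr4:119108495-119108794 on the plus strand and the Txnrd1 window at chr10:82833701-82834000 on the plus strand.
Slc23a2: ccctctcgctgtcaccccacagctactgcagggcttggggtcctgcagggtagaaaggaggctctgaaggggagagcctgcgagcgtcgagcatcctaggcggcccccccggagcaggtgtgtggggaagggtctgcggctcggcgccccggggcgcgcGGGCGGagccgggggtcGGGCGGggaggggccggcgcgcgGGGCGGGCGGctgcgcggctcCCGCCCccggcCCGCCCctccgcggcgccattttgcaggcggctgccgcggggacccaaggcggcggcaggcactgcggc
Slc2a1: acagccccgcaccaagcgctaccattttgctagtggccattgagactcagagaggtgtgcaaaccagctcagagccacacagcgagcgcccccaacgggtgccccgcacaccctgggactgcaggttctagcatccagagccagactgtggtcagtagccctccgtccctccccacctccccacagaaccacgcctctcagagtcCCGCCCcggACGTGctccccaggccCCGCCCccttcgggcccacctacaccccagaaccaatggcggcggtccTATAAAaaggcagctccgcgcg
Txnrd1: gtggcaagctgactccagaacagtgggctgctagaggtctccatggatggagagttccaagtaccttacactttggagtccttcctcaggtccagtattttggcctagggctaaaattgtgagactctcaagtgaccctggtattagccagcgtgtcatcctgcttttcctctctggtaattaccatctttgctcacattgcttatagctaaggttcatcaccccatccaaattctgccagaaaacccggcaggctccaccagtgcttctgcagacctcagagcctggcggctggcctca
The Slc23a2 window held 6 GC boxes, of which 2 overlap, and 78.3% of its bases were G or C. The Slc2a1 window held 2 GC boxes, 1 hypoxia response core and 1 match to the TATA box, the last 28 bases after the start. No motif of the 4 was found in the printed Txnrd1 window, which is that of the counted transcript. Txnrd1 had 3 windows, and those not printed each held 1 antioxidant response core, at offsets of -92 and -84 bases from the start. Slc23a2 had 2 windows, and the one not printed held 1 antioxidant response core and no GC box. Which start these embryos used was not tested. Among all 32851 windows of the table, 35.7% held a GC box, 13.6% a TATA box, 19.6% a hypoxia response core and 41.3% an antioxidant response core, so these matches are a description of common letters.

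Slc23a2 encodes SVCT2, the sodium-dependent ascorbate transporter of most tissues. Its gene lies on mm9 chr2:131878232-131970844, on the minus strand, and its counted length of 6364 bases is that of the longest annotated transcript. In Control replicates 1, 2 and 3 it was at 0.637, 1.14 and 46.1 RPKM. In TSA(0-8h) replicates 1, 2 and 3 it was at 0.0520, 0.0603 and 0.0802 RPKM, which rest on 1, 3 and 6 reads. Every TSA(0-8h) embryo was thus below every Control embryo, a pattern held by 3.96% of the 13366 genes above 0 in these 6 embryos. The TSA(0-8h)+VC(8-15h) embryos were at 0.398, 20.6 and 27.6 RPKM, from 11, 1019 and 2154 reads, and the TSA(0-8h)+VC(0-8h) embryos at 0.144 and 16.5 RPKM. The VC(8-15h) embryos were at 1.705 and 0.0956 RPKM and the VC(0-8h) embryo at 30.6 RPKM. High embryos were found with and without VC, and with and without TSA.

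By their medians the groups followed the order VC(0-8h), TSA(0-8h)+VC(8-15h), TSA(0-8h)+VC(0-8h), Control, VC(8-15h) and TSA(0-8h). Every TSA(0-8h) embryo was listed below every other embryo, as in 0.269% of the 15597 genes above 0 in any embryo. The gap between its highest embryo, at 0.0802 RPKM from 6 reads, and VC(8-15h) replicate 2, at 0.0956 RPKM from 4 reads, lies at the floor, so no order of these embryos is read from it. All other neighbours with more than 1 embryo overlapped in their ranges. The 8 embryos with VC had a lowest, median and highest level of 0.0956, 9.10 and 30.6 RPKM, and the 6 without VC of 0.0520, 0.359 and 46.1 RPKM, so the ranges overlapped.

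Slc23a1 encodes SVCT1, the ascorbate transporter known from kidney, intestine and liver. It was listed at 0 in 9 embryos and did not exceed 0.299 RPKM in any. The other 5 embryos had 1 to 8 reads each: Control replicate 2 had 0.0484 RPKM, VC(8-15h) replicate 1 had 0.135, VC(0-8h) had 0.156, TSA(0-8h)+VC(0-8h) replicate 2 had 0.203 and TSA(0-8h)+VC(8-15h) replicate 2 had 0.299. These levels lie at or near the floor of the libraries, and Slc23a1 did not pass the filter of any comparison.

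Slc2a3 encodes GLUT3, a high-affinity glucose transporter that also carries dehydroascorbate. Its gene lies on mm9 chr6:122677827-122751658, on the minus strand. The TSA(0-8h)+VC(8-15h) embryos were at 28.0, 23.0 and 25.9 RPKM, from 482, 708 and 1261 reads, with a mean of 25.7 ± 2.52 RPKM (SD, n = 3). The TSA(0-8h) embryos were at 4.93, 0.0970 and 0.0430 RPKM, all below those with late VC. Control embryos were at 2.47, 0.0736 and 26.3 RPKM, so that 1 of 3 lay within the range of the TSA(0-8h)+VC(8-15h) embryos. The SD of the Control group was 14.5 RPKM, and the difference in spread was not tested.

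The remaining embryos with VC were less alike in Slc2a3. VC(8-15h) embryos were at 1.95 and 0.0769 RPKM, TSA(0-8h)+VC(0-8h) embryos at 0 and 34.7 RPKM, and the VC(0-8h) embryo at 66.0 RPKM, the highest of the 14. Late VC was thus accompanied by a high level in all 3 embryos that had also received TSA and in neither of the 2 that had not. By medians the order was VC(0-8h), TSA(0-8h)+VC(8-15h), TSA(0-8h)+VC(0-8h), Control, VC(8-15h) and TSA(0-8h), the same order as for Slc23a2. The range of TSA(0-8h)+VC(8-15h) did not meet that of TSA(0-8h), whereas each group of 2 or 3 embryos overlapped its neighbour in this order. The lowest, median and highest levels were 0, 24.5 and 66.0 RPKM with VC and 0.0430, 1.28 and 26.3 RPKM without VC.

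Slc2a1 encodes GLUT1, the widespread glucose transporter that also carries dehydroascorbate. Its gene lies on mm9 chr4:118781316-118809935, on the plus strand. It exceeded 1 RPKM in 3 embryos only: Control replicate 1 at 34.3 RPKM, Control replicate 3 at 4.43 RPKM and TSA(0-8h)+VC(8-15h) replicate 1 at 33.8 RPKM. Control replicate 2 and 6 further embryos were at 0, and the remaining 4 had 1 to 3 reads, or 0.0331 to 0.257 RPKM. Both embryos at over 30 RPKM, 1 with and 1 without VC, came from pool 1. Slc2a1 shares 105 exon bases with the antisense gene Gm12868, whose reads cannot be told from its own without strand.

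Gsto1 encodes an omega-class glutathione transferase that reduces dehydroascorbate. Its gene lies on mm9 chr19:47929460-47939280, on the plus strand. Its high embryos were TSA(0-8h)+VC(8-15h) replicate 3 at 114 RPKM (1630 reads), VC(8-15h) replicate 1 at 41.9 RPKM, TSA(0-8h) replicate 2 at 39.9 RPKM and TSA(0-8h)+VC(8-15h) replicate 1 at 11.3 RPKM. The other 10 embryos were at 0.404 RPKM or below, 6 of them at 0. High and low embryos were therefore found together in VC(8-15h), in TSA(0-8h) and in TSA(0-8h)+VC(8-15h), while the 3 Control embryos, at 0.159, 0 and 0.190 RPKM, and both TSA(0-8h)+VC(0-8h) embryos, at 0, were low.

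The other reductases were near or at 0. Gsto2, the neighbour and paralogue of Gsto1, was at 1.83 RPKM (27 reads) in TSA(0-8h) replicate 3, at 0.102 RPKM (1 read) in TSA(0-8h)+VC(8-15h) replicate 2 and at 0 in the other 12 embryos. Glrx, which encodes the cytosolic glutaredoxin, was listed at 0 in all 14 embryos, where 3 reads on a transcript of 1 kb would have been worth at most 0.993 RPKM. Neither gene passed the filter of a comparison, and Gsto1 made up nearly all of the reads of the 3 dehydroascorbate reductases.

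Txnrd1 encodes the cytosolic thioredoxin reductase, a selenoprotein that reduces thioredoxin and can reduce dehydroascorbate. Its gene lies on mm9 chr10:82296696-82360469, on the plus strand. Of its 4 transcript entries 1, of 3634 bases, carried all of its reads. In 1466 of the 3076 genes with several entries and reads, the reads likewise stood on 1 entry, so 0 in the others says nothing of those transcripts. Control embryos were at 48.8, 0.160 and 3.02 RPKM, TSA(0-8h) embryos at 10.2, 4.16 and 0 RPKM, and those of TSA(0-8h)+VC(8-15h) at 59.8, 0.496 and 0 RPKM. In each of these groups replicate 1 was the highest, and these 3 embryos shared pool 1.

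VC(8-15h) embryos had 29.5 and 0.0419 RPKM of Txnrd1, TSA(0-8h)+VC(0-8h) embryos 0.169 and 19.0 RPKM, and the VC(0-8h) embryo 0.129 RPKM. In pool 1, 4 of 5 embryos were at 10 RPKM or more, against 1 of 6 in pool 2 and 0 of 3 in pool 3. Slc23a2 had the opposite arrangement, with 0 of 5 embryos at 10 RPKM or more in pool 1, 3 of 6 in pool 2 and 2 of 3 in pool 3. The order of the group medians of Txnrd1 was VC(8-15h), TSA(0-8h)+VC(0-8h), TSA(0-8h), Control, TSA(0-8h)+VC(8-15h) and VC(0-8h), and every group of 2 or 3 embryos overlapped its neighbours.

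The first comparison asked whether VC in the medium was accompanied by a different level of the genes that handle it. The 8 embryos with VC were compared with the 6 without, with TSA as a term, by limma on log2(RPKM + 1) with Benjamini-Hochberg adjustment over all 7600 genes that reached 1 RPKM in at least 3 of the 14 embryos. Of the 8 members 5 were tested, and 0 passed an adjusted p of 0.05, where 0.0263% of all genes tested did (2 genes, both lower with VC). That split turned with the filter: 25 genes were higher and 1 lower when all embryos of either group had to reach 1 RPKM, and 4 were higher and 0 lower with no filter. At an unadjusted p of 0.05, 0 of the 5 members passed, as did 0 with limma-voom on the recovered reads, against 6.63% of all genes that were higher with VC by the unadjusted p. No member separated the embryos with VC from those without, as 0.211% of all genes did upwards and 0.0263% downwards. The counts say little of 5 genes at such rates, and the intervals of the single members are therefore given.

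The difference with VC, on the log2(RPKM + 1) scale, was 1.80 for Slc2a3 (SE 1.41, 95% interval -0.999 to 4.59, limma adjusted p = 0.729). For Slc23a2 it was 1.39 (SE 1.34, 95% interval -1.27 to 4.05, limma adjusted p = 0.794). For the reductase Gsto1 it was 0.93 (SE 1.25, 95% interval -1.55 to 3.41, limma adjusted p = 0.879). Slc2a3, Slc23a2 and Gsto1 had estimates above 0 with intervals that reached from a fall to an increase of several log2 units. For Slc2a1 the difference was -0.59 (95% interval -2.42 to 1.24, limma adjusted p = 0.904) and for Txnrd1 -0.25 (95% interval -2.99 to 2.48, limma adjusted p = 0.976). The median over the 5 members was 0.93, against 0.51 over all 7600 genes. That shift of all genes fell to 0.04 with quantile normalization and to 0.09 with median-ratio scaling, where Slc2a3 stood at 1.10 and 1.26 and Slc23a2 at 0.45 and 0.89.

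More genes were detected in embryos with VC. They had a lowest, median and highest number of genes at 1 RPKM of 3130, 5255.5 and 6231, against 3337, 3967.5 and 5033 without VC. With that number as a further term, a choice made after seeing the data, the difference became -0.10 for Slc2a3 and -0.22 for Slc23a2. The list of 2-cell activation genes had a summed level of 29.8 to 567 RPKM with VC and 2.16 to 130 RPKM without, ranges that overlapped, all 5 of its genes reaching 1 RPKM in at least 3 embryos. Of these, Zscan4c reached it in 3 embryos and Zscan4d in 4, and each was at 0 in 7. The cumulus list summed to 0 to 1.88 RPKM with VC and 0 to 0.216 RPKM without. The part of any of these in the differences was not tested further.

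**Figure D2:**
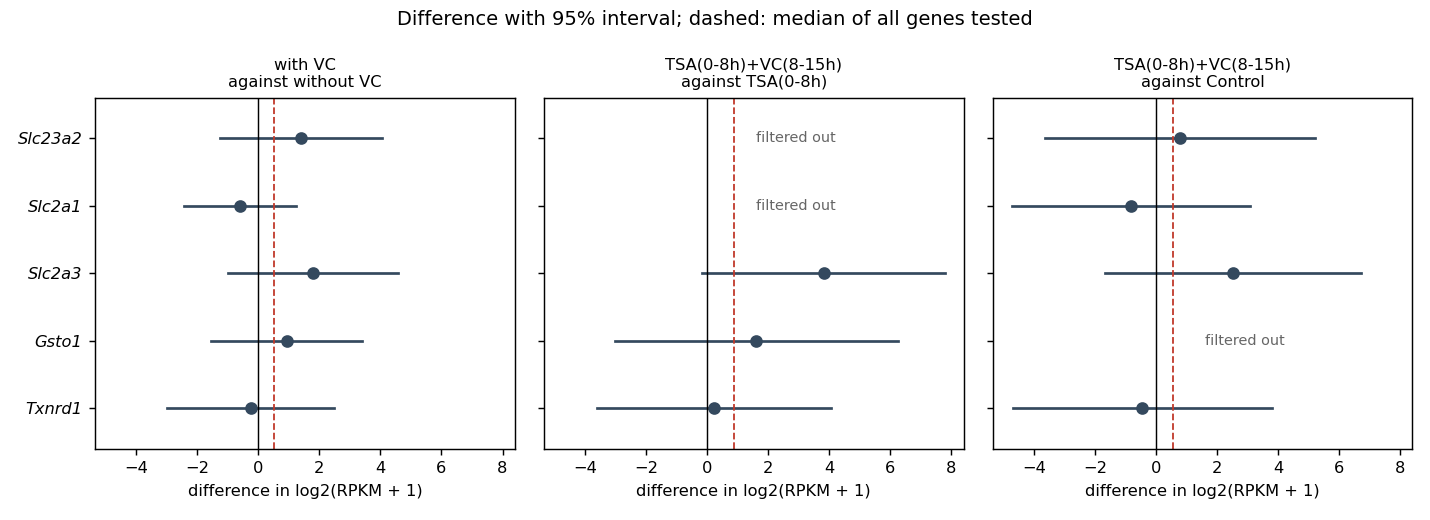
Difference in log2(RPKM + 1) on the horizontal axis for the members on the vertical axis, in the 3 comparisons, with points for the limma estimate and bars for its 95% interval. The dashed line is the median of all genes tested (0.51, 0.89 and 0.54). Every interval includes 0, and that of Slc2a3 against TSA(0-8h) comes closest to leaving it, at -0.15 to 7.78.

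Within the sequencing pools the direction was not the same for every member. Mean Slc23a2 with VC was higher by 0.31, 2.83 and 2.00 on the log2(RPKM + 1) scale in pools 1, 2 and 3. Mean Slc2a3 differed by -0.04, 3.86 and 2.34. Of the 2 transporters, Slc23a2 thus had a higher mean with VC in every pool and Slc2a3 in 2 of the 3 pools, with pool 1 close to 0. No embryo of pool 1 exceeded 1.705 RPKM of Slc23a2, and in pool 3 its highest embryo, at 46.1 RPKM, was without VC. For Gsto1 the differences were 2.91, -2.55 and 6.58, so that pool 2 went the other way. Txnrd1 differed by -0.87, -0.01 and -1.003, and Slc2a1 by -0.97, 0.02 and -1.24. Pool 3 held 1 embryo with VC and 2 without, and these within-pool values carry no test. With the pool as a block over all 14 embryos, the differences were 1.85 for Slc23a2 (limma adjusted p = 0.679) and 2.08 for Slc2a3 (limma adjusted p = 0.669).

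**Figure D3:**
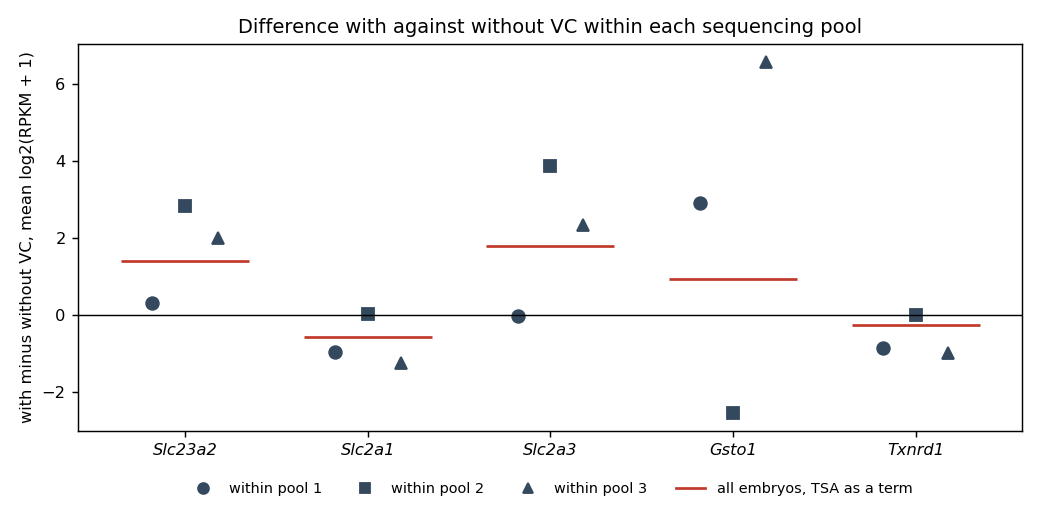
Difference between the means with and without VC on the log2(RPKM + 1) scale (vertical axis) for the 5 tested members (horizontal axis), within pool 1 (circles), pool 2 (squares) and pool 3 (triangles). The red line is the fitted difference over all 14 embryos with TSA as a term. Slc23a2 lies above 0 in each pool, though no embryo of pool 1 exceeded 1.705 RPKM, and Gsto1 runs from -2.55 to 6.58.

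The second comparison set TSA(0-8h)+VC(8-15h) against TSA(0-8h), 3 embryos each, in which late VC was the agent that differed. By limma 0 of 4642 genes passed an adjusted p of 0.05 (0%), and 0 of the 3 members tested passed. With the pool as a block, which here is the replicate number, 8 genes passed and still 0 members. At an unadjusted p of 0.05, 339 genes were higher (7.3%), 56 were lower and 0 members passed. On recovered reads limma-voom called 1 gene higher (0.0215%), 2 lower and 0 members. For Slc2a3 the difference was 3.81 (SE 1.88, 95% interval -0.15 to 7.78, limma adjusted p = 0.596, unadjusted p = 0.0585), and its 3 embryos with late VC were all above the 3 without. In 6 of 15 alternatives its unadjusted p was under 0.05, from 0.00633 to 0.0483, and its limma adjusted p was above the threshold in all 15. For some of the 6, Slc2a3 passed the filter only through the embryos with late VC. They are the minimum of 5 RPKM, the filter on all embryos of either group, and leaving out TSA(0-8h) replicate 1. In the main fit TSA(0-8h) replicate 1, at 4.93 RPKM, also reached the filter level. Slc2a3 could still not have passed there without embryos with late VC, which limits its unadjusted p and its separation as well. Other filters left the estimate at 3.81, so these p-values are no separate support for a difference. A separation of the 3 embryos with late VC above the 3 without was found in 12.3% of all genes tested, where the median difference was 0.89. Of the 3 members tested, 1 showed it.

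Gsto1 differed by 1.61 (95% interval -3.03 to 6.25) and Txnrd1 by 0.22 (95% interval -3.61 to 4.05), with limma adjusted p = 0.869 and 0.986. Slc23a2 did not reach 1 RPKM in 3 of these 6 embryos and was left out by the filter. Without a filter its difference was 3.16 (limma adjusted p = 0.979), and the 3 embryos with late VC, from 0.398 RPKM up, were above the 3 without, as in 6.09% of the 13270 genes above 0 in these embryos. Its lowest embryo with late VC, replicate 1, had 11 reads, and the TSA(0-8h) embryos had 1 to 6. Slc2a1 was at 33.8, 0 and 0 RPKM with late VC and at 0.257, 0 and 0.0331 RPKM without.

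The third comparison set the same 3 TSA(0-8h)+VC(8-15h) embryos against the 3 Control embryos, so that TSA and VC differed together. The comparisons share embryos, and their values are therefore not independent. By limma 0 of 5026 genes (0%) and 0 of the 4 members tested passed an adjusted p of 0.05, and 7 genes and 0 members did with the replicate block. At an unadjusted p of 0.05, 351 genes were higher (6.98%), 88 were lower and 0 members passed. On recovered reads limma-voom called 3 genes higher (0.0597%), 7 lower and 0 members. Slc2a3 differed by 2.51 (SE 2.06, 95% interval -1.69 to 6.70, limma adjusted p = 0.793) and Slc23a2 by 0.79 (95% interval -3.62 to 5.21, limma adjusted p = 0.950). Slc2a1 differed by -0.82 and Txnrd1 by -0.45, with limma adjusted p = 0.936 and 0.970. The groups overlapped for all 4, where 10.3% of all genes were separated upwards and 3.78% downwards, and the median of all genes was 0.54. Leaving out 1 embryo moved Slc2a3 from 1.45 (without Control replicate 2) to 3.78 (without Control replicate 3). It moved Slc23a2 from -0.078 (without Control replicate 1) to 2.34 (without Control replicate 3), with 2.18 without TSA(0-8h)+VC(8-15h) replicate 1.

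Whether the difference with VC changed with TSA was tested as an interaction over all 14 embryos. By limma 0 of 7600 genes passed (0%), 0 of the 5 members passed, and 229 genes above 0, 150 below 0 and 0 members had an unadjusted p under 0.05. The smallest p among members was that of Slc2a1, with an interaction of 3.34 (95% interval -0.32 to 7.01, unadjusted p = 0.0727, limma adjusted p = 0.916). With the replicate block it was 3.79 (unadjusted p = 0.0399, limma adjusted p = 0.850). For Slc23a2 the interaction was 3.00 (95% interval -2.34 to 8.34) and for Slc2a3 2.60 (95% interval -3.02 to 8.21). A difference between embryos with and without TSA in the change with VC was thus not detectable for any member, nor do intervals of this width show that there was none.

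The ascorbate transporter Slc23a2 and the glucose transporter Slc2a3 were high in largely the same embryos. Slc23a2 was at 16.5 RPKM or more in 5 embryos and at 1.705 RPKM or less in the other 9. In those 5 embryos, Control replicate 3, VC(0-8h), TSA(0-8h)+VC(0-8h) replicate 2 and TSA(0-8h)+VC(8-15h) replicates 2 and 3, Slc2a3 was at 23.0 RPKM or more. Among the other 9 it was at 10 RPKM or more in 1, TSA(0-8h)+VC(8-15h) replicate 1 at 28.0 RPKM. Over the 14 embryos Spearman's rho of the pair was 0.622 and Pearson's r of log2(RPKM + 1) was 0.809, given as a description, since the points share library, depth and treatment. The 5 embryos had 5033 to 6231 genes at 1 RPKM, and the other 9 had 3130 to 5875.

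Across the 14 embryos the number of genes detected had a rho of 0.719 with Slc23a2 and 0.688 with Slc2a3, against 0.253 with Txnrd1, 0.318 with Gsto1 and -0.101 with Slc2a1. The rho with the reads counted was 0.442 for Slc23a2 and 0.152 for Slc2a3. The other pair with a raised rho was Slc2a1 and Txnrd1, at 0.543. Slc2a1 was at 0 in 7 embryos and rested on few reads in most others, so this rho leans on ties and counting error. Both embryos with Slc2a1 at 10 RPKM or more had Txnrd1 at 48.8 and 59.8 RPKM, the highest levels of the 14, and both came from pool 1. Slc23a2 and Txnrd1, one for uptake and the other for recycling, had a rho of -0.092 and were at 10 RPKM or more together in 1 embryo.

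**Figure D4:**
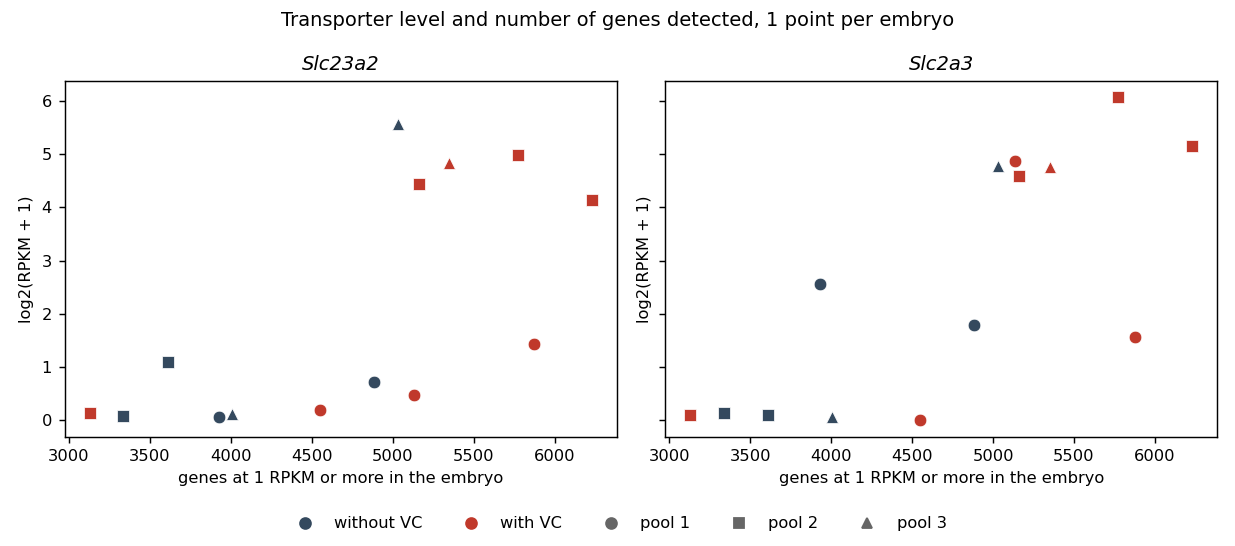
Level of Slc23a2 and Slc2a3 as log2(RPKM + 1) on the vertical axis against the number of genes at 1 RPKM or more in the same embryo on the horizontal axis. Each point is 1 of 14 embryos, coloured by VC and shaped by pool. The 5 embryos with high Slc23a2 all had at least 5033 genes detected, as had 2 embryos with low Slc23a2.

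The genes with the pattern most like each member were ranked by Spearman's rho over the 14 embryos, for the members at 1 RPKM or more in at least 7 embryos. For Slc23a2 these included Mrpl4 (rho 0.856) and Clptm1 (0.842). For Slc2a3 they were Nrg4 (rho 0.928), Inppl1 (0.893) and Pim1 (0.868), and for Txnrd1 they were Ssh1 (0.930), Nucb1 (0.876) and Rbmxl1 (0.858). All are the highest of 7600 genes and are given with no test. Slc2a3 itself was not among the 3 for Slc23a2, nor Slc23a2 among the 3 for Slc2a3.

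A wider list of 32 genes covered the reactions around the members: further sugar and ascorbate transporters, the glutathione, glutaredoxin and thioredoxin systems, reductases of the ascorbate radical or with ascorbate as donor, NADPH supply and ascorbate synthesis. With against without VC 17 of the 32 passed the filter and 0 passed an adjusted p of 0.05 by limma or limma-voom, with 2 at an unadjusted p under 0.05 by limma, where 7.91% of all genes tested were under it in either direction. The filter kept 10 of 12 genes of the thiol systems, 3 of 4 for NADPH supply, 3 of 5 reductases, 1 of 5 for synthesis and 0 of 6 transporters. In 14 of the 17 the estimate was above 0, with a median of 1.06, where 66.9% of all genes had an estimate above 0 and the median was 0.51. With the number of genes detected as a term, 9 of the 17 were above 0 with a median of 0.03, against 49.0% of all genes. Gclc and Cyb561a3, the genes under that unadjusted p, passed the filter mainly or only through embryos with VC. The list is a description of the wider pathway and was not tested as a set.

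The lowest p of the list belonged to Gclc, the catalytic subunit of the rate-limiting enzyme of glutathione synthesis. It was at 0.215, 0.765 and 0.837 RPKM in Control embryos, 0.579, 0.635 and 3.92 RPKM in TSA(0-8h) embryos, and 58.4, 25.2 and 75.4 RPKM in TSA(0-8h)+VC(8-15h) embryos. The VC(8-15h) embryos were at 60.2 and 143 RPKM, the VC(0-8h) embryo at 5.48 RPKM and the TSA(0-8h)+VC(0-8h) embryos at 0.268 and 5.97 RPKM. All 5 embryos with late VC were therefore at 25.2 RPKM or more, and the other 9 at 5.97 RPKM or less, a separation found in 0.0658% of the 7600 genes (5 genes). The difference was 3.59 with against without VC (SE 1.37, 95% interval 0.87 to 6.31, unadjusted p = 0.0104, limma adjusted p = 0.543), 4.40 against TSA(0-8h) (limma adjusted p = 0.554) and 4.96 against Control (limma adjusted p = 0.553), so it did not pass. The split by VC window was noticed in the values and carries no test.

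The next gene with against without VC was Cyb561a3, of the ascorbate-dependent cytochrome b561 family, at 2.24 (limma adjusted p = 0.618). The filter kept Cyb561a3 only through embryos with VC, as the highest without VC was at 0.0992 RPKM, which limits its unadjusted p. Among estimates below 0 the lowest p belonged to G6pdx, which supplies NADPH through the pentose phosphate pathway, at -0.99 (limma adjusted p = 0.844), and to Gclm, the other subunit of the same glutathione enzyme, at -0.38 (limma adjusted p = 0.962). TSA(0-8h)+VC(8-15h) against TSA(0-8h) kept 7 of the list and against Control 10, and 0 passed in either by limma or limma-voom, with 1 (Gclc) in each at an unadjusted p under 0.05. Of all genes tested, 8.51% in the first and 8.73% in the second had such a p in either direction. Beside Gclc, the lowest p in the first of these was that of the mitochondrial glutaredoxin Glrx5 at 3.29 (limma adjusted p = 0.625), with G6pdx at -0.65 below 0. In the second they were those of malic enzyme Me1 at 2.47 (limma adjusted p = 0.699) above 0, and of the protein disulfide isomerase P4hb at -2.45 (limma adjusted p = 0.663) and the aldehyde reductase Akr1a1 at -1.62 (limma adjusted p = 0.854) below 0. The 2 subunits of glutamate-cysteine ligase thus had estimates on either side of 0, and neither passed the test. The filter against Control kept Gclc only through its high embryos, which also limits its unadjusted p there. In the other comparisons TSA(0-8h) replicate 3, at 3.92 RPKM, was the only embryo without VC to reach the filter level for Gclc. Its unadjusted p has the same limit there.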

How the data were processed

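RNA of 14 single 2-cell SCNT embryos was sequenced with 1 library each. The authors filtered the reads, mapped them to mm9 with TopHat2, counted reads on the exons of RefSeq transcripts and deposited RPKM values, scaled to the total counted and to transcript length. Strand use in counting is not given in the sources used here. The 25650 entries were mapped to symbols by accession, 25250 had one, and RPKM values of a symbol were summed. Since RPKM moves in steps of 1 read, reads could be recovered, and 100% of the 17538 entries with reads gave whole reads within 0.01 reads.

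Groups, replicate numbers and pools came from the labels and library identifiers. Values as log2(RPKM + 1) were fitted with limma 3.58.1 in R 4.3.3 (lmFit, eBayes with trend), with Benjamini-Hochberg adjustment at 0.05. Genes at 1 RPKM or more in at least 3 of the embryos compared were kept before the fit. The study's methods used edgeR on counts, which are not used here. The study describes separate nuclear transfer experiments for the 3 TSA(0-8h)+VC(8-15h) embryos; for the other groups this is not given in the sources used here, and p-values measure only the spread between these embryos, which may be technical. In the 2 comparisons of 3 against 3, replicate numbers pair embryos of the same pool; deviations of paired embryos from their group means correlated at 0.006 to 0.034. Python 3.11.15, numpy 2.4.6, pandas 2.3.3 and matplotlib 3.10.9 were used otherwise. Gene positions are from GENCODE on mm9 and promoter windows from RefSeq.

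The members and lists were chosen with earlier results of these data known. The text names all 8 members, the 3 genes most like each member at 1 RPKM or more in at least 7 embryos, and of the wider list, per comparison and direction, the 2 of lowest p where none passed. A gene named by this rule is not reported here. Alternatives were other pseudocounts, filters, scalings, blocks, transcript entries and leaving out each embryo; limma-voom on recovered reads and the number of genes detected as a term were added after seeing the data.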

Additional observations from a re-analysis of the deposited data

Results flagged for a closer look

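In some sets of embryos with or without VC, the highest embryo stood farther from the next than Dixon's 95% critical value allows on the log2(RPKM + 1) scale. Chance gives about 1 in 20 for values with a normal spread, which these values near 0 do not have. Slc23a2 stood apart in Control replicate 3, at 46.1 RPKM (3988 reads), with the next of the 6 embryos without VC at 1.14 RPKM. Slc2a1 stood apart in TSA(0-8h)+VC(8-15h) replicate 1, at 33.8 RPKM (378 reads), with the next of the 8 embryos with VC at 0.118 RPKM. Gsto1 stood apart in TSA(0-8h) replicate 2, at 39.9 RPKM (362 reads), with the next embryo without VC at 0.220 RPKM. Gsto2 stood apart in TSA(0-8h) replicate 3 among embryos without VC, at 1.83 RPKM (27 reads), and in TSA(0-8h)+VC(8-15h) replicate 2 among embryos with VC, at 0.102 RPKM (1 read). Slc23a1 stood apart in Control replicate 2, at 0.0484 RPKM (1 read). In the last 3 cases every other embryo of the set was at 0, so that the gap equals the range by construction and the flag carries no further information.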

How the results depend on the processing

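In every alternative that was run, 0 members passed the adjusted threshold in each of the 3 comparisons and in the interaction. With the filter that asks for 1 RPKM in all embryos of either group, 0 members were tested with against without VC. Leaving out 1 embryo left 0 members called each time. The direction of a member's difference was the same in 126 of 134 other refits and in 86 of 97 refits without 1 embryo. Other filters, single transcript entries and, in the comparisons of 3 against 3, the replicate block cannot change a member's estimate. The agreement of those among the 134 was thus fixed in advance. Against TSA(0-8h), Txnrd1 turned from 0.22 to -0.10 with a pseudocount of 0.1, -0.72 with quantile normalization, -0.53 with median-ratio scaling and -0.17 with limma-voom. Against Control, Slc23a2 turned to -0.31 with quantile normalization. With against without VC, Txnrd1 turned to 0.066 when the embryos with early VC were left out, those with late VC being kept with and without TSA. Slc23a2 and Slc2a3 turned to -0.22 and -0.10 with genes detected as a term. The cause was not tested. Without 1 embryo, Txnrd1 ran from -0.82 to 0.40 with against without VC, from -0.76 to 1.30 against TSA(0-8h) and from -1.65 to 0.63 against Control, where Slc23a2 ran from -0.078 to 2.34 and Slc2a1 from -2.08 to 0.034. Slc2a3 ran from 1.26 to 2.43, 3.38 to 4.64 and 1.45 to 3.78 in the 3 comparisons. Over all alternatives its adjusted p ran from 0.135 to 0.935 against TSA(0-8h). Its unadjusted p there was 0.0483 with a pseudocount of 0.1, 0.0356 with a minimum of 5 RPKM, 0.0150 with the filter on all embryos of either group, 0.00633 without a filter, 0.0246 in limma-voom and 0.0289 without TSA(0-8h) replicate 1. The fits with 0.0356, 0.0150 and 0.0289 kept Slc2a3 only through the embryos with late VC. Those with 0.0483 and 0.0246 could not have kept it without embryos with late VC either.

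With the replicate block, the difference with VC was 2.06 for Slc2a3 (limma adjusted p = 0.688) and 2.04 for Slc23a2 (limma adjusted p = 0.666), and 0 members were called; with against without VC the numbers are not the pools, and 0 genes were called in place of 2. All genes called with against without VC ran from 0 to 26, the most under the filter on all embryos of either group, from 0 to 8 against TSA(0-8h) and from 0 to 10 against Control. The filter kept Slc23a1, Gsto2 and Glrx, at or near 0, out of all 3 comparisons, and the deepest library, Control replicate 3 with 13589389 reads, listed all 3 at 0.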
